A study of Mus musculus with 12 samples.

Results

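The tumour necrosis factor (TNF) superfamily genes described here are 5 ligand genes, Tnf, Tnfsf9, Tnfsf10, Tnfsf13b and Tnfsf15, and 3 receptor genes, Tnfrsf1a, Tnfrsf1b and Tnfrsf9. They were chosen by the gene name on the array, which gave 10 probes among 55681 non-control probes and 8 genes among 23890 tested features (a feature is a gene, represented by its brightest kept probe, or a clone, locus or unnamed probe). RNA came from RAW264.7, an established mouse macrophage line from a virus-induced tumour, and each of 12 single-colour arrays held 1 sample. The 4 groups had 3 arrays each. Cells received a scrambled control siRNA or an siRNA against lincRNA-Tnfaip3, a long intergenic noncoding RNA, for 24 h, and then spent 4 h without or with E. coli LPS at 1 µg/ml. LPS, or lipopolysaccharide, is a bacterial cell wall component sensed through the receptor TLR4. All 12 samples had therefore been given an siRNA, and there were no untransfected cells among them. The level of lincRNA-Tnfaip3 itself was not analysed here.

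TNF superfamily ligands are trimers that sit in the cell membrane or are shed from it, and they bind receptors that cluster on the target cell. Receptors with a death domain, such as the one encoded by Tnfrsf1a, recruit adaptors that can lead to NF-kB activation or to cell death, whereas receptors without one, such as those of Tnfrsf1b and Tnfrsf9, bind TRAF proteins directly. Macrophages stimulated through TLR4 are a classical source of TNF, and they also carry both TNF receptors.

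Over the arrays, the 75th percentile of processed signals ran from 312 to 478, and 27198 to 36367 probes per array were well above background. Of 10 macrophage markers, 9 were well above background on all 12 arrays, and Mrc1, the mannose receptor gene, was so on 0. Of 28 measured markers of T cells, B cells, neutrophils, fibroblasts, epithelium and endothelium, 12 were above background on all arrays and 6 on none. Each marker was counted by its best probe. Of all 55681 probes, 44.9% were well above background on all 12 arrays. The summed log2 level of the non-macrophage markers was 4.19 to 4.60 with control siRNA and 4.70 to 5.18 with control siRNA and LPS. It was 4.48 to 5.09 with lincRNA siRNA and 4.85 to 5.16 with lincRNA siRNA and LPS. That of the macrophage markers was 8.48 to 8.79 with control siRNA and 8.8 to 9 with control siRNA and LPS. With lincRNA siRNA it was 8.88 to 9.08, and with lincRNA siRNA and LPS 9.09 to 9.26. Of the 17 non-macrophage markers that could be tested, 1 passed for LPS in control-siRNA cells, where 5.15% of all features did. It was Lck, a T cell kinase gene (log2 change 0.85), and the part of these markers in the results was not tested. The arrays lay on 3 slides. Control-siRNA arrays 1 and 2 were alone on slide 1, and arrays 2 and 3 of lincRNA siRNA with LPS were alone on slide 3. Slide 2 held the other 8 arrays. A fit with the slide as a block therefore takes each LPS difference from slide 2, where the control siRNA without LPS and the lincRNA siRNA with LPS each have 1 array. Whether the replicates were grown as separate cultures is not in the labels. The p-values hence speak only of how far these samples scatter, and that scatter may be technical.

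The sequences just upstream of the members that rose are shown because these genes moved together, and that of Tnfrsf9, a gene that did not pass, is set beside them. RefSeq promoter entries (GRCm38.p6) existed for 7 of the 8 genes, in 9 windows, and not for Tnfsf9. For Tnfrsf9 window 2 is printed, the only window of any member with a match to the NF-kB consensus. Window 1 of Tnfrsf9 and the windows of Tnfsf13b and Tnfrsf1a, which also did not pass, are not printed. Each line gives the 250 bases before an annotated transcript start, 5′ to 3′ on the strand of the gene, with the start just after the last base. Capitals mark matches to 4 motifs searched on both strands: the NF-kB consensus, the ISRE-type repeat (TTTC at either end of any 2 bases), TGANTCA and TATAAA.
Tnf, chr17:35202008-35202257, minus strand: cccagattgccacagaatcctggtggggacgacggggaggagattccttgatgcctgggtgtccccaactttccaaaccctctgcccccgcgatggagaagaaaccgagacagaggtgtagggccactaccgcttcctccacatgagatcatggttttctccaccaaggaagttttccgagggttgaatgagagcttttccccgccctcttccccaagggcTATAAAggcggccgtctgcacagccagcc
Tnfsf10, chr3:27316827-27317076, plus strand: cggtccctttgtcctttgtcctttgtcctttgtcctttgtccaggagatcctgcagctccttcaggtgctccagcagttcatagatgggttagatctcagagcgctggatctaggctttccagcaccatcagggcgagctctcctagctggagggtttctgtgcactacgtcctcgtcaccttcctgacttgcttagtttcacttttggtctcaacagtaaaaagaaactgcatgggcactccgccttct
Tnfsf15, chr4:63745060-63745309, minus strand: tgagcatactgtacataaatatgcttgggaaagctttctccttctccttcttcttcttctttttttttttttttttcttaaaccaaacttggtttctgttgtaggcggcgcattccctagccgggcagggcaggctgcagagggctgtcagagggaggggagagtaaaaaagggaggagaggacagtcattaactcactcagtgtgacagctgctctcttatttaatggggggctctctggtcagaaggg
Tnfrsf1b, chr4:145246871-145247120, minus strand: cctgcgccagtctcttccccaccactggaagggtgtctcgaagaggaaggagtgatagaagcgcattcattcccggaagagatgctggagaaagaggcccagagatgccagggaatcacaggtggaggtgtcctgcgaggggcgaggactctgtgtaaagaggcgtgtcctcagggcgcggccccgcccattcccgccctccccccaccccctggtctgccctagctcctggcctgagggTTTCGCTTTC
Tnfrsf9, window 2, chr4:150927749-150927998, plus strand: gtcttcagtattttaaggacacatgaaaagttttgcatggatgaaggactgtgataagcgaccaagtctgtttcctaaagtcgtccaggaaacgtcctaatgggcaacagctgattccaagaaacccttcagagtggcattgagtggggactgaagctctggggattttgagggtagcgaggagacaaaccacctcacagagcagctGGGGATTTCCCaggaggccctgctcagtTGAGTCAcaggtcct

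The Tnf window held TATAAA, the TATA box sequence, with its first base 29 bases before the start. TATAAA occurred in 12.4% of all 32851 promoter windows of that length. The Tnfrsf1b window ended in a match to the ISRE-type repeat, named for the interferon-stimulated response element, which was present in 2.98% of windows. Window 2 of Tnfrsf9 held NF-kB consensus matches at 2 overlapping positions, with first bases 43 and 42 bases before the start. The match at 43 was on the plus strand, and the same bases at 42 matched on both strands. This window also held a TGANTCA match, a palindromic AP-1 type motif that reads the same on both strands. These motifs occurred in 3.9% and 6.75% of windows. None of the 4 motifs was found in the windows of Tnfsf10, Tnfsf15 and Tnfrsf1a. In the windows not printed, the only matches were those of window 2 of Tnfsf13b, to the ISRE-type repeat on the minus strand and to TGANTCA. A match describes the letters only and is not a measured binding site.

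LPS raised 5 of the 8 genes in control-siRNA cells: the ligand genes Tnf, Tnfsf9, Tnfsf10 and Tnfsf15 and the receptor gene Tnfrsf1b. Tnfsf10 is counted by a fit that uses its values without LPS, which were not well above background. The share of all features called in that comparison was 5.15%, and 3.26% were called higher. The same 5 genes rose in lincRNA-siRNA cells, where 1.85% of all features were called and 1.51% were called higher. The ligand gene Tnfsf13b and the receptor genes Tnfrsf1a and Tnfrsf9 passed in neither. The median log2 change of the 8 genes was 1.08 in control-siRNA cells and 0.98 in lincRNA-siRNA cells, beside medians of 0.06 and -0.01 over all features. The arrays with and without LPS did not overlap for 6 of the 8 genes with control siRNA, where 30.1% of all features did not overlap, and for 5 with lincRNA siRNA, where 15.5% did not. Calls are at an adjusted p under 0.05 in limma with Benjamini-Hochberg adjustment over all features of a comparison, errors are standard errors of that fit (SE), and levels are log2 of the signal over the 75th percentile of the array. No level of 1 gene is set against that of another, because probes differ in brightness.

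**Figure D1:**
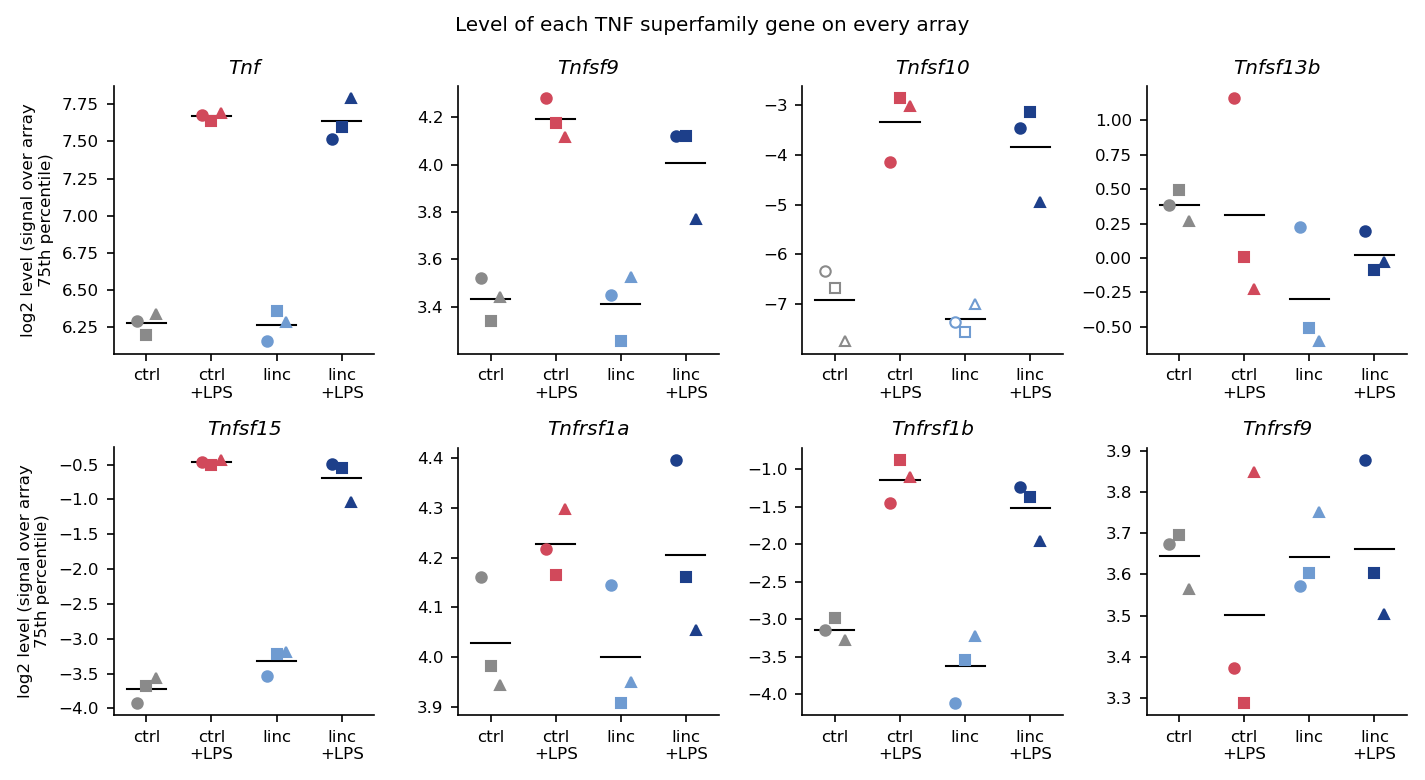
Log2 level (signal over the array's 75th percentile, each panel with its own axis) of the 8 TNF superfamily genes on every array, by group, where ctrl is control siRNA and linc is lincRNA-Tnfaip3 siRNA. Circles, squares and triangles are arrays 1, 2 and 3, open symbols are arrays on which the probe was not well above background, and bars are means of 3 arrays. For Tnf, the 6 arrays with LPS lie between 7.52 and 7.79 and the 6 without between 6.15 and 6.36.

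Among the ligands, Tnf encodes the founding cytokine of the family, which drives fever and local inflammation. Its log2 level was 6.29, 6.19 and 6.34 with control siRNA and 7.68, 7.64 and 7.69 with control siRNA and LPS. It was 6.15, 6.36 and 6.28 with lincRNA siRNA and 7.52, 7.60 and 7.79 with lincRNA siRNA and LPS. All 6 arrays with LPS were above all 6 without, and the siRNA groups overlapped in each LPS state. The log2 change with LPS was 1.39 (SE 0.10, adjusted p = 7.539e-05) in control-siRNA cells and 1.37 (SE 0.10, adjusted p = 0.0001127) in lincRNA-siRNA cells, or 2.63-fold and 2.59-fold. With the slide as a block the values were 1.33 (adjusted p = 0.008322) and 1.25 (adjusted p = 0.01078). On the arrays of slide 2 alone the call in lincRNA-siRNA cells was lost, at an adjusted p of 0.05228. The probe (mm9, chromosome 17, 35336795 to 35336854, minus strand) was spotted 10 times per array, with a standard deviation between its spots of 0.0509 to 0.105 on the log2 scale.

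Tnfsf15 encodes TL1A, a ligand of the death-domain receptor DR3 that co-stimulates T cells. Its level was -3.92, -3.68 and -3.56 with control siRNA and -0.47, -0.51 and -0.43 with control siRNA and LPS. With lincRNA siRNA it was -3.54, -3.22 and -3.19 without LPS and -0.50, -0.55 and -1.04 with LPS. The groups with and without LPS lay far apart, and array 3 of lincRNA siRNA with LPS was the lowest of the 6 stimulated arrays. The log2 change was 3.25 (SE 0.16, adjusted p = 9.808e-06) in control-siRNA cells and 2.62 (SE 0.16, adjusted p = 4.706e-05) in lincRNA-siRNA cells, or 9.52-fold and 6.15-fold. Under normexp background correction, which adds an offset that shrinks the changes of dim probes, the values were 1.88 and 1.60. The call held in all 26 alternatives in both comparisons, though some of these cannot change the estimate of a gene with 1 probe. The probe lay at chromosome 4, 63388134 to 63388193 (mm9, minus strand).

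Tnfsf10 encodes TRAIL, a ligand that can trigger apoptosis in transformed cells. Its probe (mm9, chromosome 3, 27238508 to 27238567, plus strand) was not well above background on any of the 6 arrays without LPS and was above it on all 6 with LPS. With LPS the level was -4.15, -2.87 and -3.03 in control-siRNA cells and -3.47, -3.15 and -4.94 in lincRNA-siRNA cells. The measured values without LPS were -6.34, -6.67 and -7.74 with control siRNA and -7.35, -7.55 and -7.00 with lincRNA siRNA. These values were not well above background, yet the fit and its adjusted p used them. The probe was kept by the filter only through the groups with LPS, in which it is high. The stimulated arrays were all above the unstimulated ones, and array 3 of lincRNA siRNA with LPS and array 1 of control siRNA with LPS were the lowest of their groups. By group means, the lower bound on the rise with LPS was 2.51-fold in control-siRNA cells (measured mean levels -3.35 and -6.92). In lincRNA-siRNA cells it was 2.40-fold (measured means -3.85 and -7.30). The adjusted p in limma, 0.004099 and 0.008577, belong to the fitted log2 changes of 3.57 and 3.44 and not to these bounds. The bound sets the mean of the brighter group against, on each dimmer array, whichever is higher, the probe's own signal or the lowest signal that was still well above background. It makes no allowance for the scatter between arrays. Under normexp the fitted log2 changes shrank from 3.57 and 3.44 to 0.72 (adjusted p = 0.06133) and 0.76 (adjusted p = 0.09368), which ended both calls. Both are below the bounds, which are 1.325 and 1.262 on the log2 scale, so the bounds hold for the main processing only. With the slide as a block the call in lincRNA-siRNA cells was lost (adjusted p = 0.07677), and on slide 2 alone both were (adjusted p = 0.06016 and 0.0983).

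Tnfsf9 encodes 4-1BBL, the partner of the receptor encoded by Tnfrsf9. Its level was 3.52, 3.34 and 3.44 with control siRNA and 4.28, 4.18 and 4.12 with control siRNA and LPS. With lincRNA siRNA it was 3.45, 3.25 and 3.52 without LPS and 4.12, 4.12 and 3.77 with LPS. The arrays with and without LPS did not overlap for either siRNA, and array 3 of lincRNA siRNA with LPS was the lowest stimulated array. The log2 change was 0.76 (SE 0.12, adjusted p = 0.007256) in control-siRNA cells and 0.60 (SE 0.12, adjusted p = 0.04529) in lincRNA-siRNA cells. The latter was lost in 18 of 26 alternatives, among them when any 1 of 11 of the 12 arrays was left out. The array that could be left out with the call kept was array 3 of lincRNA siRNA with LPS, and the highest adjusted p among the alternatives was 0.2875. With the slide as a block neither comparison passed (0.75, adjusted p = 0.1691, and 0.71, adjusted p = 0.2432). The probe lay at chromosome 17, 57247062 to 57247121 (mm9, plus strand).

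Tnfsf13b encodes BAFF, a survival factor for B cells. Its level was 0.39, 0.49 and 0.27 with control siRNA and 1.16, 0.01 and -0.22 with control siRNA and LPS. With lincRNA siRNA it was 0.22, -0.51 and -0.61 without LPS and 0.19, -0.09 and -0.03 with LPS. The groups with and without LPS overlapped for both siRNAs, and array 1 of control siRNA with LPS stood above the other 11 arrays. The log2 change with LPS was -0.07 (SE 0.34, 95% CI -0.82 to 0.68, adjusted p = 0.9191) in control-siRNA cells and -0.49 without that array. In lincRNA-siRNA cells it was 0.32 (SE 0.34, 95% CI -0.43 to 1.07, adjusted p = 0.8462). The probe lay at chromosome 8, 10035561 to 10035620 (mm9, plus strand).

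**Figure D2:**
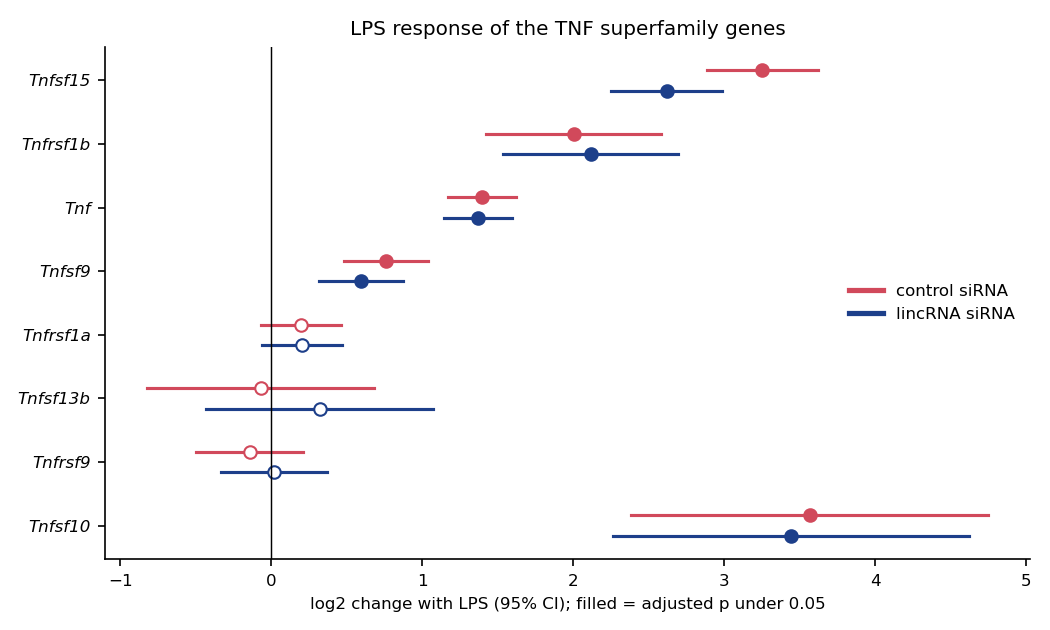
Log2 change with LPS of the 8 genes (x axis) in control-siRNA cells (red) and lincRNA-siRNA cells (blue), from limma on 3 arrays per group. Points are estimates, lines are 95% confidence intervals and filled points have an adjusted p under 0.05. Among the called genes measured in all groups, changes run from Tnfsf15 (3.25 and 2.62) to Tnfsf9 (0.76 and 0.60). Tnfsf10 is drawn last, at fitted values of 3.57 and 3.44 that have no place in that order, since its bounds are 2.51-fold and 2.40-fold.

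Among the receptors, Tnfrsf1b encodes TNFR2, the TNF receptor without a death domain. Its level was -3.15, -2.98 and -3.28 with control siRNA and -1.44, -0.87 and -1.10 with control siRNA and LPS. With lincRNA siRNA it was -4.12, -3.55 and -3.23 without LPS and -1.24, -1.36 and -1.95 with LPS. Every stimulated array was above every unstimulated array. The log2 change was 2.00 (SE 0.26, adjusted p = 0.00185) in control-siRNA cells and 2.12 (SE 0.26, adjusted p = 0.002267) in lincRNA-siRNA cells, or 4.01-fold and 4.33-fold. With the slide as a block the values were 2.15 (adjusted p = 0.05215) and 2.40 (adjusted p = 0.04439), so that the first call was lost, and on slide 2 alone both were lost (adjusted p = 0.1509 and 0.1374). Under normexp the changes were 1.11 and 1.04 and still passed. The probe lay at chromosome 4, 144802359 to 144802418 (mm9, minus strand).

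Tnfrsf1a encodes TNFR1, the death-domain receptor for TNF found on most cell types. By its brighter probe (mm9, chromosome 6, 125312376 to 125312435, plus strand) its level was 4.16, 3.98 and 3.94 with control siRNA and 4.22, 4.17 and 4.30 with control siRNA and LPS. It was 4.14, 3.91 and 3.95 with lincRNA siRNA and 4.40, 4.16 and 4.05 with lincRNA siRNA and LPS. The arrays with LPS were just above those without for control siRNA and overlapped for lincRNA siRNA. The log2 change was 0.20 in both (SE 0.12, 95% CI -0.07 to 0.46, adjusted p = 0.3223, and 95% CI -0.06 to 0.47, adjusted p = 0.6521). Averaged over both siRNAs it was 0.20 (95% CI 0.01 to 0.39, adjusted p = 0.1798).

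The dimmer Tnfrsf1a probe (chromosome 6, 125311922 to 125311981, plus strand) gave a larger value. Its level was 2.01, 1.90 and 2.22 with control siRNA, 2.52, 2.45 and 2.60 with control siRNA and LPS, 2.36, 2.06 and 2.22 with lincRNA siRNA, and 2.42, 2.87 and 2.72 with lincRNA siRNA and LPS. Its arrays did not overlap between the LPS states for either siRNA. In limma over all 33132 kept probes its log2 change was 0.48 (SE 0.14, adjusted p = 0.09331) and 0.46 (SE 0.14, adjusted p = 0.2425), and averaged over both siRNAs 0.47 (SE 0.10, adjusted p = 0.02072). Both probes moved the same way, and the averaged change passed for the dimmer probe and not for the brighter one. The difference between the probes was not tested.

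Tnfrsf9 encodes 4-1BB, or CD137, a co-stimulatory receptor. By its brighter probe (mm9, chromosome 4, 150319582 to 150319641, plus strand) its level was 3.67, 3.70 and 3.56 with control siRNA and 3.37, 3.29 and 3.85 with control siRNA and LPS. It was 3.57, 3.60 and 3.75 with lincRNA siRNA and 3.88, 3.60 and 3.50 with lincRNA siRNA and LPS. The groups overlapped, and the log2 change with LPS was -0.14 (SE 0.16, 95% CI -0.50 to 0.21, adjusted p = 0.6014) in control-siRNA cells and 0.02 (SE 0.16, 95% CI -0.33 to 0.37, adjusted p = 0.9903) in lincRNA-siRNA cells. This probe ends in a run of 22 bases of alternating G and T. The 44 other probes with a run at least that long were well above background on all 12 arrays (44 of 44), as were 44.9% of all 55681 probes. None of those 44 passed in limma for LPS averaged over both siRNAs, where 2392 of all 33132 kept probes did. What share of this probe's signal comes from Tnfrsf9 RNA was not tested.

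The dimmer Tnfrsf9 probe (chromosome 4, 150319101 to 150319160, plus strand) has no such run. Its level was -2.69, -2.78 and -2.40 with control siRNA, -2.84, -2.82 and -2.82 with control siRNA and LPS, -2.84, -2.86 and -2.99 with lincRNA siRNA, and -2.93, -3.32 and -2.98 with lincRNA siRNA and LPS. Its highest 3 values were the 3 arrays of control siRNA without LPS. The log2 change with LPS was -0.21 (SE 0.13, 95% CI -0.51 to 0.09, adjusted p = 0.3662) and -0.18 (SE 0.13, 95% CI -0.48 to 0.12, adjusted p = 0.7789). Neither probe of Tnfrsf9 passed in any comparison.

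**Figure D3:**
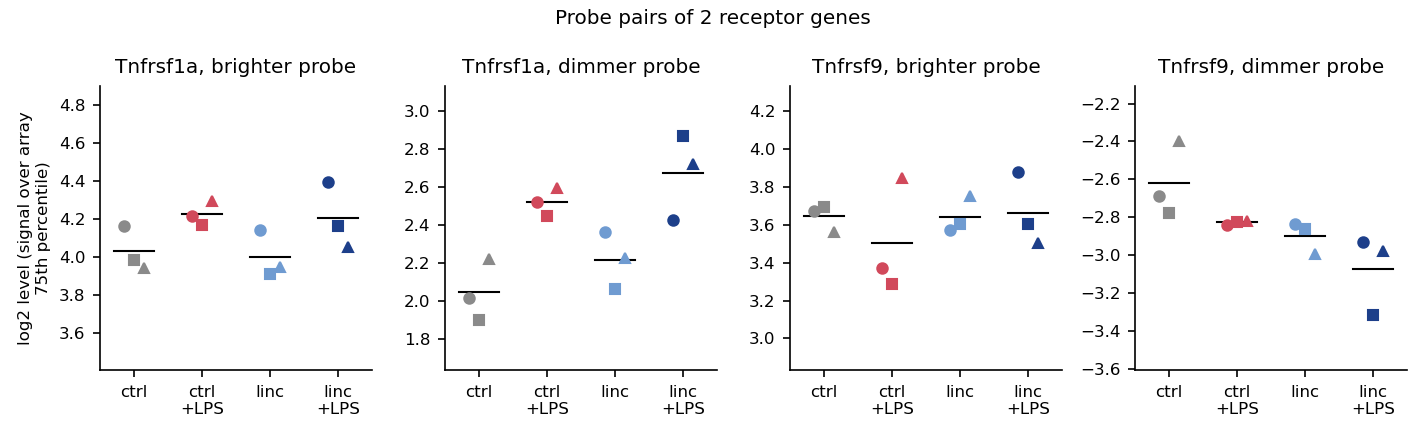
Log2 level (signal over the array's 75th percentile) of both probes of Tnfrsf1a and of Tnfrsf9 on every array; each panel spans the same range of 1.5 log2 units, and symbols are as in the plot of all 8 genes. The dimmer Tnfrsf1a probe shows no overlap between arrays with and without LPS, whereas the brighter Tnfrsf9 probe overlaps throughout.

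Averaged over both siRNAs, the 5 genes passed again (8.22% of all features did, and 4.21% were higher). The log2 changes were 2.94 for Tnfsf15, 2.06 for Tnfrsf1b, 1.38 for Tnf and 0.68 for Tnfsf9, and Tnfsf10 was fitted at 3.50. Here and under the slide block, Tnfsf10 is counted by fits that use its values without LPS, which were not well above background. All 5 also passed this average with the slide as a block, where their adjusted p ranged from 0.0002578 for Tnfsf15 to 0.02997 for Tnfsf9. On slide 2 alone Tnfsf9 was lost (adjusted p = 0.05615).

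**Figure D4:**
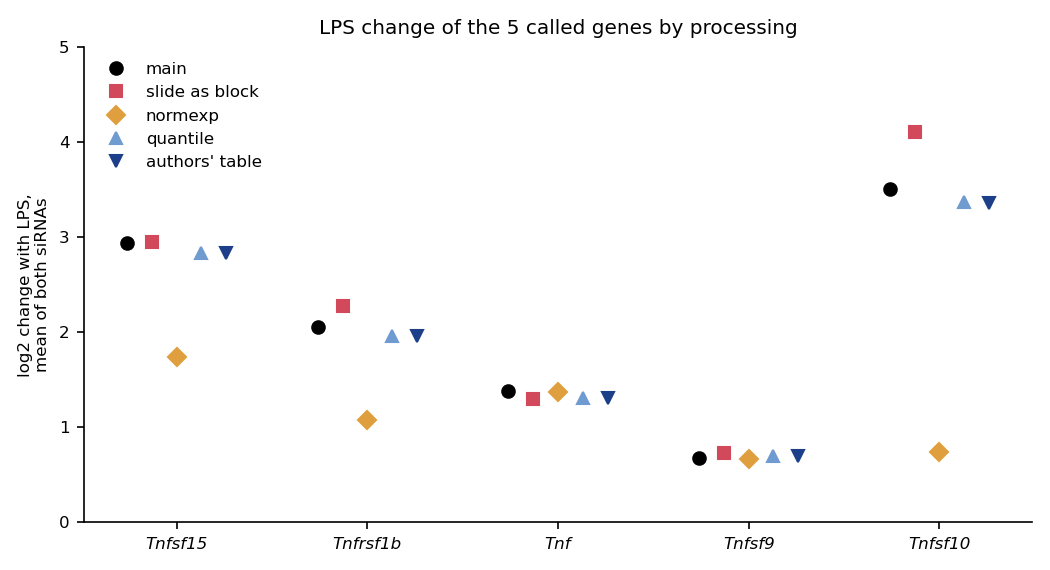
Log2 change with LPS, averaged over both siRNAs (y axis), of the 5 called genes under the main processing, the slide as a block, normexp background correction, quantile normalization and the authors' value table. Tnf and Tnfsf9 differ little between settings, whereas under normexp Tnfsf15 falls from 2.94 to 1.74, Tnfrsf1b from 2.06 to 1.08 and Tnfsf10 from 3.50 to 0.74. The Tnfsf10 points use values without LPS that were not well above background.

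The siRNA against lincRNA-Tnfaip3 was compared with the control siRNA to ask whether these genes depend on that RNA. None of the 8 genes passed with LPS, without LPS or averaged over both states, where 0%, 0% and 0.155% of all features were called. In limma, 1108 of 23890 features with LPS and 4428 without it had an unadjusted p under 0.05. If no feature differed, a share of 0.05 would be expected there. Control-siRNA arrays 1 and 2 without LPS lay alone on slide 1, and lincRNA-siRNA arrays 2 and 3 with LPS alone on slide 3. In these counts a difference between slides therefore cannot be fully told apart from one between siRNAs. Without control-siRNA array 3, which leaves that group on slide 1 alone, the features called without LPS went from 0 to 2610. In stimulated cells Tnf differed by -0.03 (log2, lincRNA siRNA minus control siRNA, 95% CI -0.26 to 0.19), Tnfsf15 by -0.23 (95% CI -0.59 to 0.14) and Tnfsf9 by -0.19 (95% CI -0.47 to 0.09). Tnfsf10 differed by -0.50 (95% CI -1.69 to 0.68), the widest interval of the 8, and Tnfsf13b by -0.29 (95% CI -1.04 to 0.46). Of the receptors, Tnfrsf1b differed by -0.38 (95% CI -0.96 to 0.20), Tnfrsf1a by -0.02 (95% CI -0.29 to 0.24) and Tnfrsf9 by 0.16 (95% CI -0.19 to 0.51). By the brightest probe the siRNA groups overlapped for all 8 genes in stimulated cells, whereas 11.4% of all features did not overlap, and the lowest adjusted p was 0.9757. The dimmer Tnfrsf9 probe did not overlap there (-0.25, 95% CI -0.55 to 0.05, adjusted p = 0.9665). With the slide as a block, the differences in stimulated cells were -0.15 for Tnf, -0.03 for Tnfsf15 and -0.07 for Tnfsf9. They were -0.12 for Tnfsf10 and -0.12 for Tnfsf13b. For the receptors, by the brightest probe, they were -0.099 for Tnfrsf1b, 0.17 for Tnfrsf1a and 0.38 for Tnfrsf9.

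**Figure D5:**
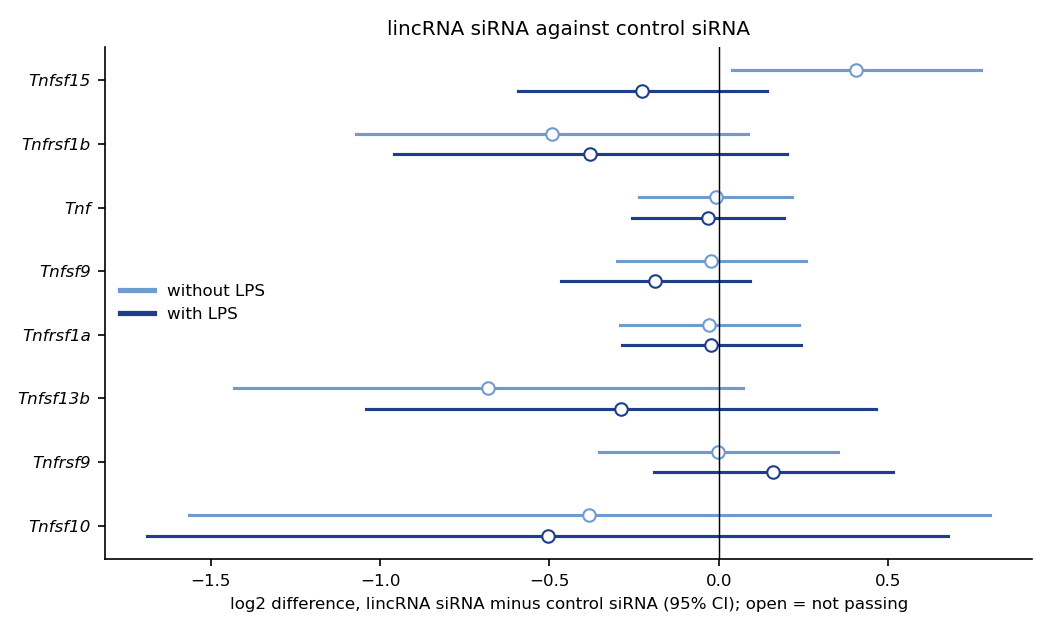
Log2 difference between lincRNA siRNA and control siRNA (x axis) of the 8 genes without LPS (light blue) and with LPS (dark blue), from limma on 3 arrays per group; lines are 95% confidence intervals, and all points are open because none passed. The intervals for Tnf reach from -0.26 to 0.22, and that for Tnfsf10 with LPS from -1.69 to 0.68. The Tnfsf10 point without LPS compares groups in which its probe was not well above background.

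In unstimulated cells the siRNA groups did not overlap for 2 of the 8 genes, as for 21.3% of all features. Tnfsf13b was lower on the lincRNA-siRNA arrays by a log2 difference of -0.68 (95% CI -1.43 to 0.07, adjusted p = 0.2987), and Tnfsf15 was higher by 0.41 (95% CI 0.04 to 0.77, adjusted p = 0.2471). With the slide as a block these were -0.57 and 0.25. Tnfrsf1b differed by -0.49 (95% CI -1.07 to 0.09, adjusted p = 0.3221), with array 1 of lincRNA siRNA the lowest of the 12. Tnf differed by -0.01 (95% CI -0.23 to 0.22), Tnfsf9 by -0.02 (95% CI -0.30 to 0.26), Tnfrsf1a by -0.03 (95% CI -0.29 to 0.24) and Tnfrsf9, by its brighter probe, by less than 0.01 (95% CI -0.35 to 0.35). The dimmer Tnfrsf9 probe was lower on the lincRNA-siRNA arrays without overlap, by a log2 difference of -0.28 (95% CI -0.58 to 0.02, adjusted p = 0.2974), and averaged over both LPS states the difference was -0.26 (95% CI -0.47 to -0.05, adjusted p = 0.2417). Tnfsf10 was not well above background in either group. Averaged over both LPS states, Tnfrsf1b differed by -0.44 (95% CI -0.85 to -0.03, adjusted p = 0.2782) and the slide-blocked value was -0.22. Tnfsf13b differed by -0.48 (95% CI -1.02 to 0.05, adjusted p = 0.3159).

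Whether the response to LPS differed between the siRNAs was tested with the interaction, which called 0 of 8 genes and 0% of all features. In limma, 895 of 23890 features had an unadjusted p under 0.05, where a share of 0.05 would be expected if none differed. Tnfsf15 had the interval farthest from 0: its LPS change in lincRNA-siRNA cells minus that in control-siRNA cells was -0.63 (95% CI -1.15 to -0.11, unadjusted p = 0.02227, adjusted p = 0.8909), and the slide-blocked value was -0.28. For Tnf the difference of the LPS changes was -0.02 (95% CI -0.34 to 0.30) and for Tnfsf9 -0.16 (95% CI -0.56 to 0.23). No value is given for Tnfsf10, whose probe was not well above background on any unstimulated array. For Tnfrsf1b it was 0.11 (95% CI -0.71 to 0.93), for Tnfrsf1a 0.01 (95% CI -0.37 to 0.38), for Tnfrsf9 0.16 (95% CI -0.34 to 0.66) and for Tnfsf13b 0.39 (95% CI -0.67 to 1.45).

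Other genes of the pathway were read from 5 lists. Their counts stand beside 5.15% of all features called with control siRNA (3.26% higher), 1.85% with lincRNA siRNA (1.51% higher) and 8.22% in the average (4.21% higher). Of 13 other superfamily ligands, 6 could be tested. In control-siRNA cells LPS raised 2 of them, Lta, the lymphotoxin gene next to Tnf (1.75, SE 0.15, adjusted p = 0.0001845), and Tnfsf8, the CD30 ligand gene (1.15, SE 0.20, adjusted p = 0.01065, and 0.2205 under the slide block). Lta rose by 1.57 in lincRNA-siRNA cells, and Ltb, its partner in the membrane-bound lymphotoxin trimer, passed in the average alone (0.74, adjusted p = 0.01611, and 0.1269 under the slide block). The median of the 6 was 0.53 in control-siRNA cells. Fasl, Cd40lg, Cd70, Tnfsf4, Tnfsf11 and Tnfsf18 were on the array and did not pass the filter on dim probes.

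Of 25 other superfamily receptors, 19 were tested and 2 rose in both siRNA groups. Cd40, the macrophage receptor for the T cell ligand CD40L, rose by 3.01 (SE 0.14, adjusted p = 8.091e-06) with control siRNA and 2.47 (SE 0.14, adjusted p = 2.609e-05) with lincRNA siRNA. Fas, a death receptor gene, rose by 1.98 and 1.69. The median of the 19 was -0.04 in control-siRNA cells and 0.04 in lincRNA-siRNA cells, close to those over all features.

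Of 30 genes for proteins that act at the receptors, LPS raised 6 and lowered 0 in control-siRNA cells and raised 4 and lowered 0 in lincRNA-siRNA cells, with medians of 0.05 and 0.06. Tnfaip3, which encodes the ubiquitin-editing inhibitor A20, rose by 1.35 (SE 0.20, adjusted p = 0.003732) and 1.31 (SE 0.20, adjusted p = 0.007536). Traf1, an adaptor that binds TNFR2, rose by 1.09 and 1.29, and Traf5, another TRAF adaptor, by 1.18 and 0.94. Under the slide block these 3 genes passed in neither siRNA group, with adjusted p of 0.09436 and 0.1236 for Tnfaip3, 0.2275 and 0.2158 for Traf1, and 0.09155 and 0.3221 for Traf5. Cflar, also of this list, rose by 0.93 and 0.98, and the slide block, with values of 1.13 and 0.87, ended neither call. In the average, 7 genes of the list rose and 1 fell. Of 7 tested genes for processing and shedding of the proteins, 1 rose in both siRNA groups, Rhbdf2, the iRhom2 gene, whose product carries the TNF-shedding protease to the cell surface (1.79 and 1.47), and the slide block ended both calls (adjusted p = 0.1259 and 0.4901). Furin, a protease gene, passed in the average alone (0.48) and not with the slide block (adjusted p = 0.3572). Of 12 genes that act on Tnf mRNA, 1 rose and 1 fell in both siRNA groups. Zfp36, the tristetraprolin gene, whose product destabilizes Tnf mRNA, rose by 0.98 and 0.83, and its relative Zfp36l2 fell by 0.75 and 0.65. The slide block ended both calls of Zfp36l2 (adjusted p = 0.2382 and 0.631) and neither of Zfp36 (adjusted p = 0.02179 and 0.04432). No gene of the 5 lists passed in a comparison between siRNAs. Of all list genes called with control siRNA, 5 of 13 still passed under the slide block, as did 5 of 10 called with lincRNA siRNA and 9 of 17 called in the average.

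Genes with a pattern most like that of a member were found by the root mean square distance between centred log2 levels over the 12 arrays, among 14878 gene symbols, for the 4 members with an averaged LPS change of at least 2-fold, a size that 2.13% of all features passed with. Nearest to Tnf were Micall2 (distance 0.0893), Nupr1 (0.114) and Stk40 (0.114). Nearest to Tnfsf15 were Trim21 (0.172), Cd40 (0.218) and Ccl5 (0.236), the last a chemokine gene. Nearest to Tnfrsf1b were Herc6 (0.255), Nod2 (0.287) and Clec2d (0.305). Nearest to Tnfsf10 were Irf1 (0.52), Csf1 (0.575) and Tnn (0.595), at distances that include the scatter of Tnfsf10 below background. These distances describe the 12 arrays, which share their LPS groups, and carry no test.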

How the data were processed

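Spot intensity values were deposited by the authors as Agilent Feature Extraction output, version 10.7.1.1 per the file headers, background-subtracted within each array and not normalized between arrays. Probe positions refer to mm9, per the file headers. A value table on a log2 scale was also deposited. Each of its columns matched its own array by rank, its columns share a median of 4.75, and it served as an alternative; how it was normalized remains unstated by labels and headers.

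Outlier spots were left out, spots of a probe were averaged, and log2 of the processed signal minus the array's 75th percentile was taken. A probe was kept where some group had it well above background on each of its 3 arrays (33132, 59.5%), and the brightest kept probe stood for a gene. The group means were estimated in 1 limma model (version 3.58.1, R 4.3.3) over the 12 arrays, with Benjamini-Hochberg adjustment over 23890 features. The model was tested on simulated data with independent noise and no slide effect, so that test cannot speak to the layout of the slides. Normexp used an offset of 50. Symbols came from RefSeq (GRCm38.p6) by accession for 26582 probes. Figures were drawn with matplotlib 3.10.9 in Python 3.11.15.

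From each gene list, at most the 3 genes with the largest change in a comparison among those that passed are named, and for likeness the 3 nearest symbols. The members and lists were chosen with earlier results of these data known. Alternatives covered background, scaling, filter, probe choice, slide, replicate number, outlier spots, spread and each array left out. The dimmer probes and the omission of slide 1 or 3 were added after seeing the data.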

Additional observations from a re-analysis of the deposited data

How the results depend on the processing

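Of 1449 recomputed values of the 8 genes, 1325 kept their direction and side of the threshold, 33 lost a call, 2 gained one, 0 reversed a call, and 89 changed sign without having been called. The settings are not independent: some leave a given estimate unchanged, and the slide settings can return the same estimate. With LPS in control-siRNA cells, 5 genes and 1231 features passed. No filter left 715 features, the slide block 233 features and 3 genes, slide 2 alone 42 and 2, and omission of slide 1 left 208 and 3. In lincRNA-siRNA cells, with 5 genes and 443 features, the slide block left 158 features and 3 genes, slide 2 alone 45 and 1, omission of slide 3 left 112 and 3, and normexp left 3 genes. For the LPS average of 1964 features, no filter left 1246, the slide block 530, slide 2 alone 274, and omission of slide 1 or 3 left 728 or 762, with 4 to 6 genes passing over all settings. The 6th gene was Tnfrsf1a, by its dimmer probe or by the mean of its probes. For the siRNA with LPS, 0 features became 2 with the slide block and 2 without slide 3. Without LPS, 0 became 5 under normexp, 2 with the mean of probes, 1 with the slide block and 4 without slide 1. For the siRNA average, 37 became 0 with no filter, with the slide block, on slide 2 alone and without slide 3, 1 without slide 1, 99 when all 12 arrays had to be above background, 23 with outlier spots kept and 105 with a trend in the spread. None of the 8 genes passed a siRNA comparison or the interaction in any of these settings.

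Leaving out 1 array gave 537 to 3977 features and 5 genes for LPS in control-siRNA cells, 246 to 469 features and 4 to 5 genes in lincRNA-siRNA cells, 1215 to 3671 features and 5 genes in the average, and 0 genes in the siRNA comparisons and the interaction. In those the features ranged from 0 to 0 with LPS, from 0 to 2610 without LPS, from 0 to 1635 averaged, and from 0 to 359 for the interaction. Each highest count above 0, except that in lincRNA-siRNA cells, came without control-siRNA array 3, which leaves that group on slide 1 alone. For LPS in control-siRNA cells the count was 583, 563, 586 and 537 without control-siRNA array 1 or 2 or array 2 or 3 with LPS, and in lincRNA-siRNA cells it was 285 and 246 without array 1 or 2 with LPS. Without LPS, the siRNA count was 134 without lincRNA-siRNA array 1.

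With the replicate block, 1575, 387 and 2292 features passed the LPS comparisons (5, 4 and 5 genes), 20 the siRNA average, and 0 the other siRNA comparisons and the interaction. The numbers were not treated as pairing the samples, because same-numbered arrays correlated in their deviations from the group means at -0.299 to 0.469, with 8 of 18 pairs over 0.1, and 5 of 12 arrays correlated best with their own number. Tnfsf10 could not be tested where all 12 arrays had to be above background. The causes of these changes were not tested. The signal over background limits Tnfsf10, and 3 arrays per group limit every value.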
